A study of Mus musculus with 6 samples.

Results

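Potassium channel genes were taken as every gene of the count table whose symbol is Kcn followed by subfamily letters, a number and at most 1 further letter. This gave 93 of 50559 listed genes. They comprised 17 pore-forming genes of the voltage-gated families Kv1 to Kv4, 10 modifier Kv genes, 5 Kv7 genes, 8 genes of Kv10 to Kv12, 12 auxiliary Kv subunits, 12 genes of calcium- and sodium-activated channels, 15 inward rectifiers and 14 tandem-pore-domain (K2P) genes. Total RNA was sequenced from 3 libraries of C57 mice with the genotype label WNT3 control and 3 with the label WNT3 Overexpressing. All 6 carry the tissue label auditory cortex, while the extraction protocol names striatum. The study asked which molecules change in the auditory cortex when Wnt3, a secreted signalling ligand, is overexpressed. The labels give no age, no vector, promoter or target cell for the overexpression, no control treatment, and no statement that the libraries come from separate animals, and the p-values accordingly cover the variation among these libraries alone, which may be technical.

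Potassium channels let potassium leave the cell and so bring the membrane back to rest. Voltage-gated (Kv) channels end the action potential and set how fast a neuron can fire, Kv7 and erg channels hold back repetitive firing, calcium-activated channels shape the after-hyperpolarisation, and inward rectifier and K2P channels set the resting potential. In cortex the set is split between cell types: axons and somata of neurons carry different Kv families, fast-spiking interneurons depend on Kv3, and astrocytes clear potassium through an inward rectifier encoded by Kcnj10.

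Total counts ranged from 42614588 to 71803617 per library. Wnt3 was at 2.70, 1.91 and 1.74 CPM (counts scaled to TMM-adjusted library size) in controls 1 to 3 and at 98.8, 7.45 and 8.71 CPM in overexpression libraries 1 to 3. The log2 fold change of Wnt3 was 4.18 ± 1.02 (SE), with an edgeR adjusted p of 0.822, and 4.11 without control 2. Its lowest overexpression library stood above its highest control. Control 2 stood apart from the other 5 libraries. Its correlation with them on log2 CPM across genes was 0.933 to 0.946, against 0.971 to 0.979 among the others. Tested genes were put into 4 equal bins by relative transcript length, the ratio of counts to TPM. The longest bin had a median log2 deviation from the 6-library mean of -0.492 in control 2, and the shortest bin one of 0.661. In the other 5 libraries these medians lay between 0.08 and 0.127 and between -0.149 and -0.089. The short neuronal RNA Bc1 took 97702 TPM in control 2 and 24336 to 32645 TPM elsewhere. Comparisons are therefore given with and without control 2.

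Markers of cortical excitatory neurons summed to 1015 to 1140 CPM in the controls and 1048 to 1164 CPM in overexpression (5 of 5 genes tested), and striatal projection neuron markers to 227 to 371 and 256 to 297 CPM (7 of 7 tested). Endothelial markers summed to 81.8 to 91.2 CPM in controls and 119 to 168 CPM in overexpression (3 of 3 tested), and leukocyte markers to 0.446 to 1.595 and 4.90 to 36.2 CPM (3 of 4 tested, with S100a9 or Cd3e at 0 in some libraries). Flt1 made up most of the endothelial sum. Of the endothelial markers, 2 were higher and 1, Cldn5, was lower with all libraries (log2 fold change -0.15) and higher without control 2 (0.65). In bulk tissue, fewer cells of a type and less RNA per cell cannot be told apart, and the part of these markers in the channel results was not tested.

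The libraries expressed most of the channel genes. Compared per transcript length, 45 of the 93 genes had a mean deposited TPM (length-scaled abundance) of 10 or more, 29 lay between 1 and 10, and 19 lay under 1. The highest was Kcnab2, which encodes a cytoplasmic beta subunit of Kv1 channels, at a mean of 242.8 TPM and 174 to 281 TPM by library. Control 2 was its lowest library on TPM, but not on CPM, where it was at 381.5 against 351.6 to 414.1 elsewhere.

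A group of 8 genes had means between 79.99 and 98.6 TPM and ranges over libraries that overlapped, so their order is within the spread. They included Kcnmb4 (98.6 TPM), the neuronal beta subunit of large-conductance calcium-activated channels, and Kcnma1 (88.03 TPM), their pore. They also included Kcnj9 (95.9 TPM), a G protein-gated inward rectifier subunit, Kcnj10 (86.7 TPM), and the Kv4-binding calcium sensors Kcnip2 (85.95 TPM) and Kcnip3 (84.98 TPM). Kcnc1, a fast-spiking Kv3 pore, had 80.2 TPM and led the Kv1 to Kv4 families, while Kcnk1 (66.2 TPM) led the K2P genes, Kcnh3 (57.4 TPM) Kv10 to Kv12, and Kcnf1 (41.2 TPM) the modifier subunits. The order depended on control 2 in places: without it Kcnmb4 moved from rank 3 to rank 8 and Kcnt1 from rank 10 to rank 7, while Kcnab2 kept rank 1.

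**Figure D1:**
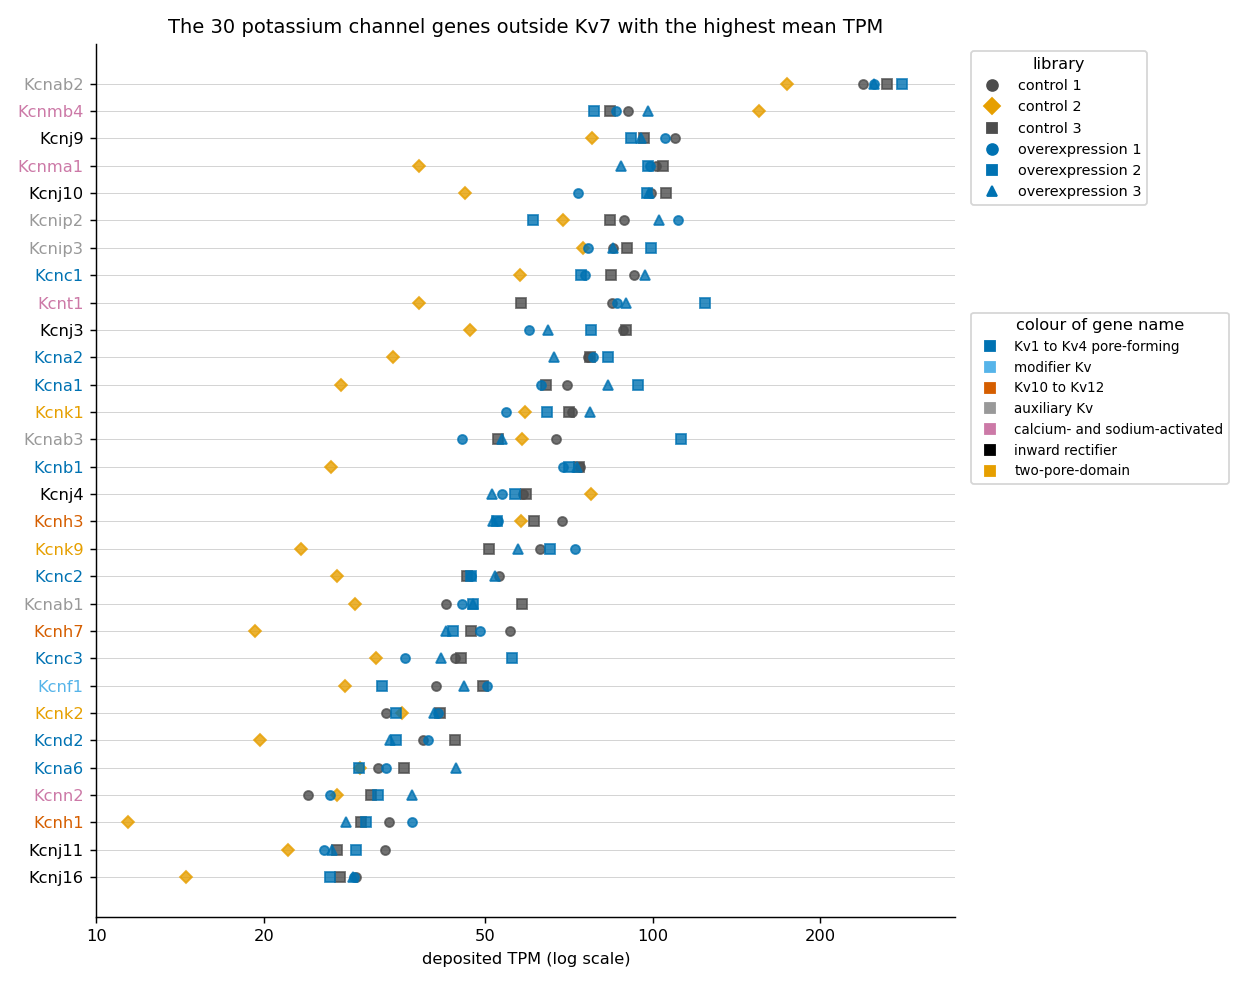
Deposited TPM (log axis) of the 30 potassium channel genes outside Kv7 with the highest mean, one marker per library, with gene names coloured by subfamily. Control 2 (orange) lies below the other 5 libraries for many genes, such as Kcnma1 at 38.07 TPM, and above them for Kcnmb4. TPM add up to the same total in each library, and Bc1 took more of that total in control 2. The part of Bc1 in the low TPM of these genes was not tested. A low TPM there need not be a low CPM: in control 2 Kcnj9 was lowest on TPM (77.8) and highest on CPM (181).

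Of the 93 genes, 82 had enough counts to be tested. The 11 below the filter were Kcna7, Kcna10, Kcnv2, Kcne1, Kcnn4, Kcnj1, Kcnj15, Kcnk7, Kcnk15, Kcnk16 and Kcnk18. Kcnn4, the intermediate-conductance calcium-activated channel of blood cells and epithelia, had the most counts among them, 0, 20 and 6 across controls 1 to 3 and 11, 7 and 0 across overexpression libraries 1 to 3. Kcnj1, the renal outer medullary channel, and Kcnk15 had no count in any library, which allows up to 0.00889 CPM over the 6 libraries (3 counts, covering counting error only). Kcna7 had 8 counts in the controls and 0 in overexpression, too few for a comparison.

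Control 2 was often at an end of the spread of these genes between libraries. Over the 76 genes with a mean of at least 1 CPM, the highest library exceeded the lowest by a median of 1.89-fold with all 6 libraries and 1.46-fold without control 2. The ratio was above 2 for 34 genes with control 2 and for 15 without it. Leaving out any library can only lower or keep this ratio, and the other libraries were not left out for comparison. Control 2 was the lowest library for 29 of the 76 genes and the highest for 24. Over all tested genes, control 2 was the lowest of the 6 libraries in 33.9% and the highest in 35.8%.

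Which channel genes were low or high in control 2 went with their transcript length. Channel transcripts were long: their median relative length was at the 72.8th percentile of tested genes, and 41 of 82 fell in the longest bin. In that bin 33 of 41 were lower in control 2 than the mean of controls 1 and 3, with a median log2 difference of -0.53, against 81.2% and -0.59 for all genes of that bin. In the next to shortest bin 3 of 15 were lower, with a median of 0.39 (29.9% and 0.32 for all genes). Across the 82 genes the difference had a Pearson r of -0.42 and a Spearman rho of -0.59 with log2 length (-0.32 and -0.48 over 22360 genes). This is a description across genes that share the same libraries.

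A few genes lay far from the median of genes of their length. Kcna3, a Kv1 pore known from T cells and microglia, was at 0.238 CPM in control 2 and between 3.75 and 8.33 CPM in the other 5 libraries, so that their median was 19.2-fold above it, although its relative transcript length was below the median of tested genes. Kcnn3, a small-conductance calcium-activated channel, was at 4.16 CPM in control 2 against 11.7 to 28.02 CPM elsewhere, and Kcnh5, an eag channel, at 5.67 CPM against 10.2 to 32.3 CPM. In the other direction, Kcnip4, a Kv4-binding calcium sensor with a high relative transcript length, was at 243 CPM in control 2 and 89.4 to 120 CPM elsewhere. On the deposited TPM Kcnip4 was not high in control 2. It was at 33.4, 14.8 and 13.9 TPM in controls 1 to 3 and 11.8, 26.6 and 6.98 TPM in overexpression. Its ratio of counts to TPM thus differed between libraries. Its exons overlap other genes on the opposite strand, so reads may be mixed.

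**Figure D2:**
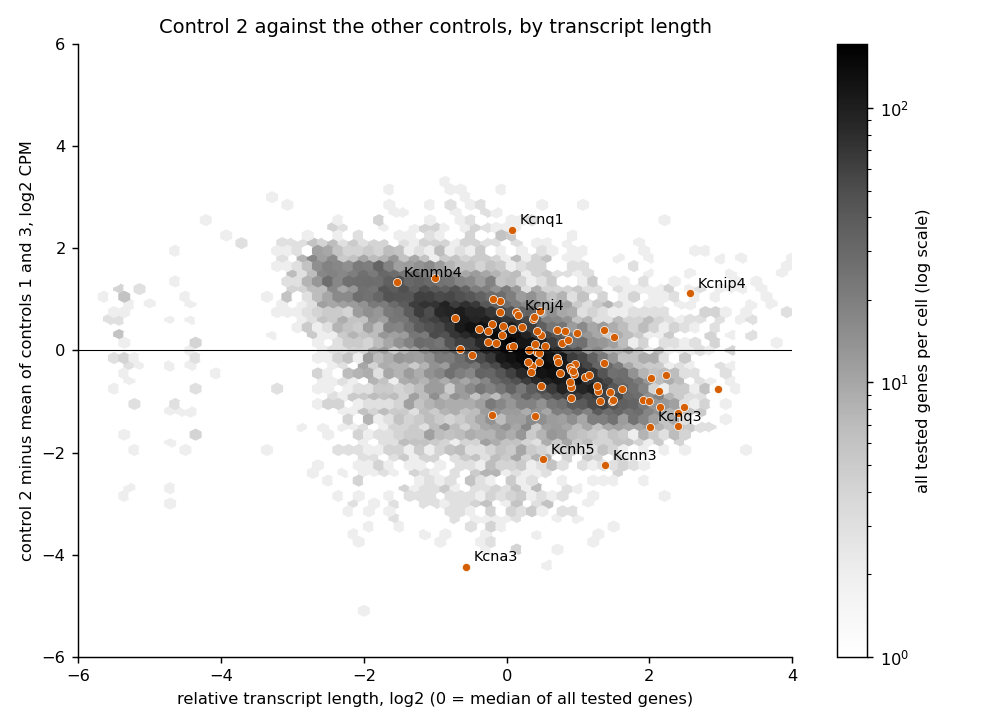
Difference of control 2 from the mean of controls 1 and 3 (log2 CPM) against relative transcript length (log2, 0 at the median of tested genes), for 82 channel genes (orange) over all 22360 tested genes (grey, darker where denser). Most long channel transcripts lie below 0 along the slope of all genes, and Kcna3 lies far below it at -4.24.

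Summed over all 93 genes, channel expression was 6976, 5215 and 6791 CPM in controls 1 to 3 and 6361, 6749 and 6694 CPM in overexpression libraries 1 to 3. The overexpression libraries fell between control 2 and the other 2 controls. The auxiliary Kv subunits were the only subfamily whose sum was highest in control 2, at 832, 1031 and 860 CPM in the controls and 777, 895 and 823 CPM in overexpression.

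**Figure D3:**
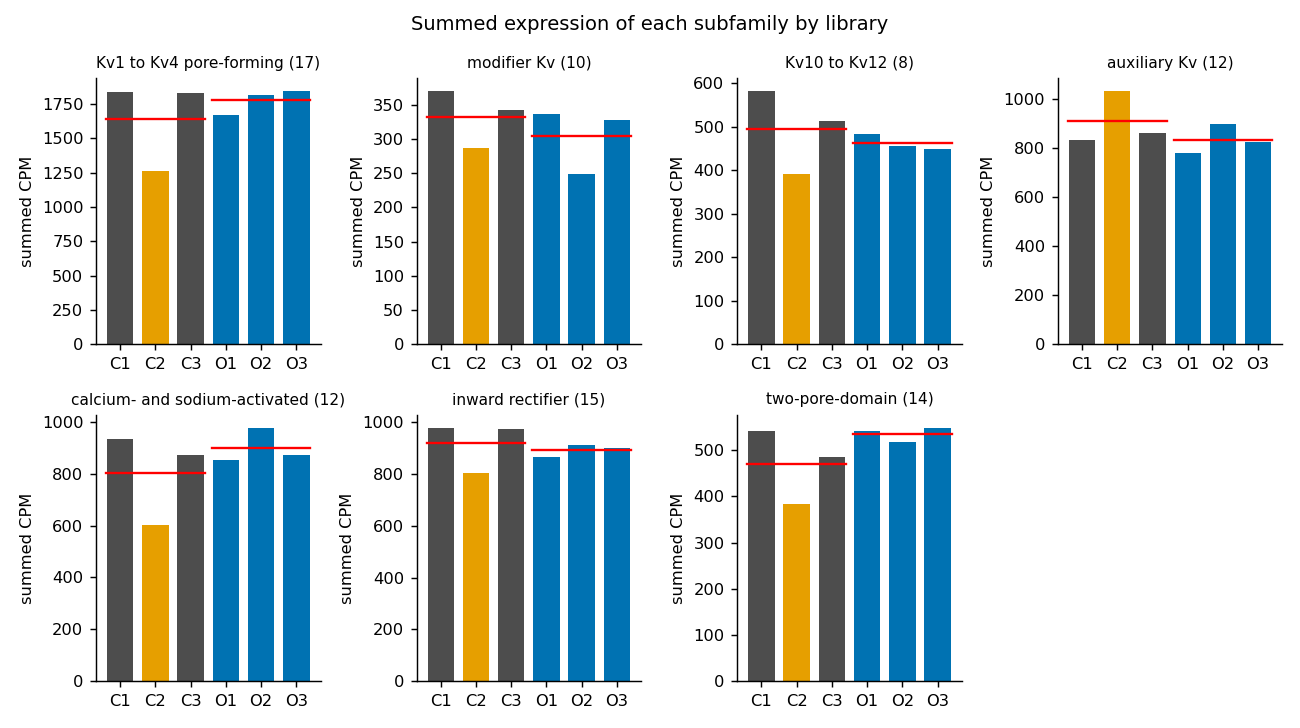
Summed TMM-normalised CPM of all genes of each subfamily other than Kv7 (number of genes in brackets) in controls 1 to 3 (C1 to C3, control 2 in orange) and overexpression libraries 1 to 3 (O1 to O3, blue). Red lines are group means; control 2 is the lowest bar of the 6 in 5 of the 7 panels.

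No channel gene passed an adjusted p of 0.05 between overexpression and control. The edgeR quasi-likelihood test called 0 of 22360 genes (0%), DESeq2 called 64 of 25561 (0.250%), none of them a channel gene, and the lowest adjusted p of a channel gene was 0.822 by edgeR and 0.389 by DESeq2. An unadjusted p under 0.05 in edgeR was reached by 5 of 82 channel genes (6.1%), against 4.65% of all tested genes. Of these, 4 were lower in overexpression (background 2.80%) and 1 was higher (1.86%). Log2 fold changes ranged from -1.02 for Kcnj14 to 1.156 for Kcnk5, 34 genes were above 0 (41.5%, against 49.3% of all tested genes) and 48 below, and the median was -0.05, against -0.007 for all tested genes. On the deposited TPM, with 1 added before taking log2, 57 of 76 channel genes (75%) were above 0, against 72.1% of all genes. The median was 0.139, against 0.179 for all genes, a difference of -0.04. Without a filter on low TPM the medians were 0.128 and 0.059. On TPM, the side of all genes on which the channel genes lay thus depended on the summary and the filter.

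Groups did not overlap for 9 of the 82 genes (11%), 3 higher and 6 lower, close to the 11.9% of all tested genes (5.89% higher and 6.04% lower). Without control 2, with only controls 1 and 3 left, the lean to the lower side was larger. Then 11 of 83 tested genes had an unadjusted p under 0.05 (13.3%, against 5.87% of all genes), 10 of them lower (12%, against 2.80%) and 1 higher (1.2%, against 3.07%). Groups did not overlap for 16 genes on the lower side (19.3%, against 10.8%) and 4 on the higher side (4.82%, against 11.1%), or 24.1% against 21.9% in both directions together. The edgeR test again called 0 genes, channel genes or others (0%), with a lowest adjusted p of 0.655 among channel genes. DESeq2 called 123 of 23784 genes (0.517%) and no channel gene, with a lowest adjusted p of 0.128 for Kcns2. Log2 fold changes were then above 0 for 31 channel genes (37.3%, against 53.2% of all genes), with a median of -0.07 over channel genes and 0.02 over all genes.

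Of the 5 genes at p under 0.05 with all libraries, 3 were among the 11 without control 2. With control 2 kept and a trend on transcript length removed in each library, 11 of 82 genes had p under 0.05 (13.4%, background 6.64%), 8 lower (background 3.81%) and 3 higher (background 2.82%). Of these 11, 8 were shared with the 11 found without control 2. With both steps together, 9 of 83 had p under 0.05 (background 5.81%), all 9 among those 11.

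**Figure D4:**
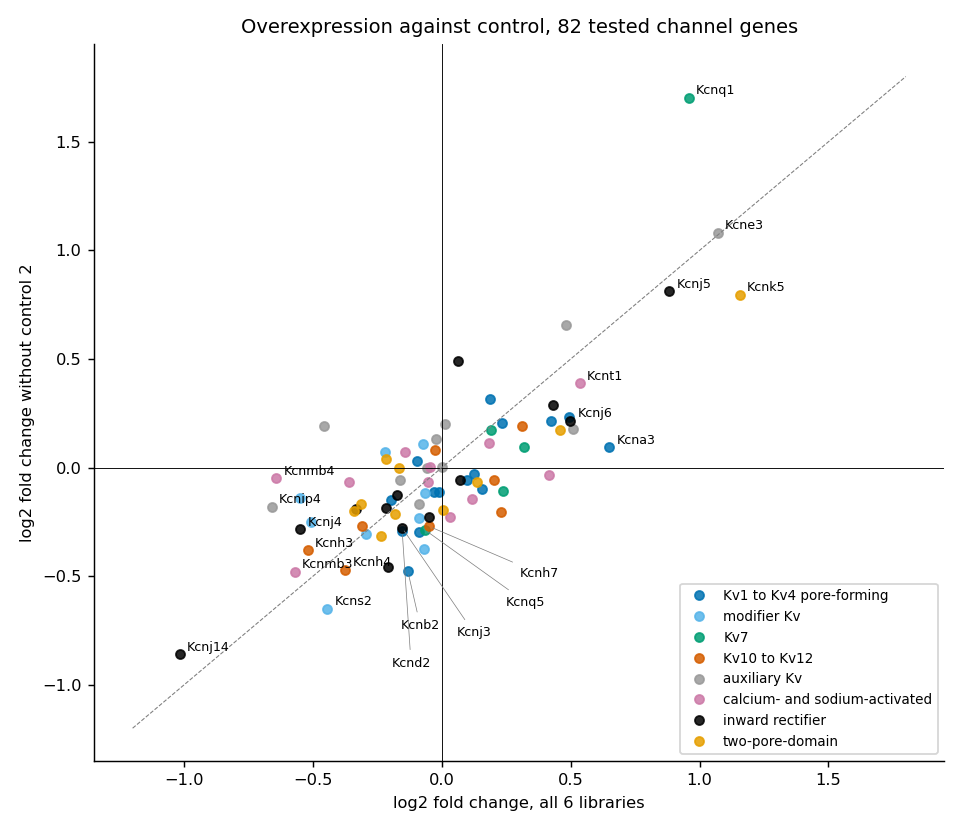
Log2 fold change of overexpression against control for the 82 tested channel genes with all 6 libraries (horizontal) and without control 2 (vertical), coloured by subfamily. The dashed line marks equal values; genes below 0 on the vertical axis outnumber those above, and named genes have p under 0.05 in either fit or a fold change beyond 0.6.

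Kv1 to Kv4 channels, the delayed rectifiers and A-type channels of neurons, had no gene at p under 0.05 with all libraries. Of 15 tested genes, 8 were above 0 and 7 below, with a median log2 fold change of 0.097 that became -0.06 without control 2. Kcnc4, a Kv3 pore, was the 1 gene whose groups did not overlap, at 55.7, 61.7 and 56.5 CPM in the controls and 51.4, 47.4 and 52.7 CPM in overexpression, a log2 fold change of -0.20 ± 0.15 (SE), or -0.15 without control 2. Kcna1, a low-threshold axonal channel, was at 261, 149 and 242 CPM in the controls and 219, 342 and 311 CPM in overexpression, a log2 fold change of 0.42 ± 0.26 (SE), or 0.21 without control 2. The groups overlapped, because overexpression library 1 lay below controls 1 and 3. Kcnd3, an A-type pore, was at 63.3, 33.4 and 69.7 CPM in the controls and 92.3, 69.4 and 72.3 CPM in overexpression, 0.49 ± 0.28 (SE), or 0.23 without control 2. Kcnc1 averaged 200 ± 22.0 CPM (control) and 196 ± 32.9 CPM (overexpression, SD, n = 3), and its log2 fold change was -0.03.

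Without control 2, the A-type pore Kcnd2 and the somatodendritic delayed rectifier Kcnb2 had p under 0.05 and were lower. Kcnd2, which sets dendritic A-type current, was at 92.5 and 103 CPM in controls 1 and 3 and at 84.3, 77.9 and 77.07 CPM in overexpression, while control 2 was lower than all of these, at 70.6 CPM. Its log2 fold change was -0.15 ± 0.18 (SE) with control 2 and -0.29 without. Kcnb2 was at 54.9 and 48.5 CPM in controls 1 and 3, at 18.5 CPM in control 2 and at 47.08, 33.8 and 30.3 CPM in overexpression, -0.13 with control 2 and -0.48 without. In both genes control 2 lay on the far side of the overexpression libraries from the other controls.

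Modifier Kv genes encode subunits that form no channel alone and tune Kv2. All 9 tested genes had a log2 fold change below 0, from -0.55 to -0.07 with a median of -0.22, but none had p under 0.05 and in none did the groups stand apart. On the deposited TPM the median was 0.042, with all genes at 0.179. Without control 2, 8 of 10 were below 0 (median -0.24), and 2 genes, Kcns1 and Kcns3, were then above 0. Kcns2 was at 37.9, 20.1 and 28.8 CPM in the controls and 24.9, 20.8 and 18.04 CPM in overexpression, -0.45 ± 0.26 (SE) with all libraries and -0.65 ± 0.18 (SE, edgeR adjusted p = 0.69) without control 2. Kcng2 was lower by value as well, at 1.83 ± 0.78 and 1.25 ± 0.18 CPM (SD, n = 3), but its change was -0.55 with control 2, where it was highest at 2.73 CPM, and -0.14 without. Kcnf1, the most abundant modifier, was at 86.9 ± 10.5 and 83.0 ± 17.1 CPM (SD, n = 3).

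Kv7 genes, which carry the M-current, were 4 above 0 and 1 below with all libraries, and 3 above and 2 below without control 2. Kcnq3, a neuronal member, was at 309, 109.6 and 308.5 CPM in the controls and 285, 309 and 264 CPM in overexpression, and its log2 fold change was 0.24 with control 2 and -0.11 without. Kcnq5 was at 121, 65.5 and 106 CPM in the controls and 97.2, 93.8 and 88.1 CPM in overexpression, -0.07 with control 2 and -0.29 (p under 0.05) without. Kcnq1, the cardiac and epithelial member, was near the detection limit, at 0 to 0.587 CPM in the controls and 0.386 to 1.03 CPM in overexpression. Its exons overlap the antisense RNA Kcnq1ot1. The libraries are described as strand-specific, but the strand setting of the counting is not given in the sources used here, so reads of the pair may be mixed.

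Among eag, erg and elk channels (Kv10 to Kv12), Kcnh3 had all of its overexpression values below its lowest control. Kcnh3 encodes the main elk channel of forebrain neurons, which opens near rest and restrains excitability. The gene spans 99224861 to 99242817 of chromosome 15 (mm10, GENCODE M21, plus strand). It was at 113, 139 and 101 CPM in controls 1 to 3 and at 77.3, 82.5 and 86.5 CPM in overexpression libraries 1 to 3. The log2 fold change was -0.52 ± 0.17 (SE), with unadjusted p = 0.0167 and adjusted p = 0.822 by edgeR, and -0.38 ± 0.10 (SE) with adjusted p = 0.655 without control 2. Across the omission of single libraries it ran from -0.62 to -0.38, with an unadjusted p under 0.05 in 4 of 6 fits and a highest p of 0.0692. Its exons overlap Mcrs1 on the opposite strand, so reads of the pair may be mixed.

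Kcnh4, another elk gene, was at 25.3, 19.04 and 22.01 CPM in the controls and 14.02, 17.0 and 20.2 CPM in overexpression, -0.38 ± 0.21 (SE), or -0.47 ± 0.18 without control 2. Only control 2 overlapped with the overexpression libraries. The erg gene Kcnh7 was at 299.6 and 253 CPM in controls 1 and 3, at 158 CPM in control 2 and at 234.5, 225 and 227 CPM in overexpression. Its log2 fold change was -0.05 with control 2 and -0.27 without. Over the 8 genes, 5 were below 0, with a median of -0.04. On the deposited TPM the median was 0.308, with all genes at 0.179. Without control 2, 6 of 8 were below 0 (median -0.235), 3 of them at p under 0.05 (background 2.80% on the lower side).

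The auxiliary Kv subunits, which set trafficking, gating and calcium sensitivity of Kv pores, had no gene at p under 0.05 with or without control 2. Of 11 tested, 5 were above 0 with all libraries and 7 without control 2. Kcnab2 averaged 382 ± 18.6 CPM (control) and 382 ± 31.3 CPM (overexpression, SD, n = 3). Kcnip4 had the lowest change, -0.66 ± 0.32 (SE), which came to -0.18 without control 2. Kcne3, a small membrane subunit that modifies several Kv pores, was the 1 auxiliary gene with groups that did not overlap, at 0.188, 0.165 and 0.138 CPM in the controls and 0.268, 0.418 and 0.350 CPM in overexpression, a log2 fold change of 1.07 ± 0.55 (SE), or 1.08 without control 2. At this level it rests on few reads.

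Among calcium- and sodium-activated channels, Kcnt1 was higher and Kcnmb3 lower at an unadjusted p near 0.05. Kcnt1, a sodium-activated channel that shapes the slow after-hyperpolarisation, was at 222, 141 and 177 CPM in the controls and 209, 322 and 250 CPM in overexpression. The groups overlapped through overexpression library 1 and control 1. The log2 fold change was 0.53 ± 0.23 (SE, edgeR adjusted p = 0.822), and 0.39 ± 0.19 (adjusted p = 0.883) without control 2. The pore of the large-conductance channel, Kcnma1, was at 493, 250 and 507 CPM in the controls and 458, 470 and 427 CPM in overexpression, 0.12 ± 0.27 (SE) with control 2 and -0.15 without.

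Kcnmb3, a beta subunit of that channel, was at 4.18, 5.48 and 5.04 CPM in the controls and 3.03, 3.49 and 3.39 CPM in overexpression, with no overlap. Its log2 fold change was -0.57 ± 0.25 (SE, edgeR adjusted p = 0.822) and -0.48 without control 2. Kcnmb4 was at 37.4, 92.8 and 36.2 CPM in the controls and 33.6, 31.9 and 41.2 CPM in overexpression, and its -0.64 became -0.05 without control 2. Of the 11 tested genes 5 were above 0 with all libraries and 4 without control 2, with a median of -0.05 in both.

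Inward rectifiers had log2 fold changes from -1.02 to 0.88. Of 13 tested genes, 8 were below 0, 3 of them with groups that did not overlap on the lower side (background 6.04%). On the higher side 1 gene had groups that did not overlap (background 5.89%). The median was -0.15 (all genes -0.007), or -0.19 without control 2 (all genes 0.017). On the deposited TPM it was 0.052, with all genes at 0.179. Kcnj14, a strong inward rectifier of motor and other neurons, spans 45816460 to 45824782 of chromosome 7 (mm10, GENCODE M21, minus strand). It was at 1.83, 2.70 and 2.18 CPM in controls 1 to 3 and 1.21, 0.964 and 1.13 CPM in overexpression libraries 1 to 3. Every overexpression library lay below every control. Its log2 fold change of -1.02 ± 0.32 (SE) had an unadjusted p of 0.0121 and an adjusted p of 0.822 by edgeR, and was -0.86 ± 0.27 without control 2. It kept an unadjusted p under 0.05 in all 6 fits that left out 1 library, with changes from -1.14 to -0.86.

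Kcnj4, a strong inward rectifier of forebrain neurons that holds the resting potential, was at 78.4, 137 and 92.5 CPM in the controls and 72.7, 65.3 and 72.4 CPM in overexpression. The groups did not overlap, and the gap between control 1 and overexpression library 1 was small. The log2 fold change was -0.55 ± 0.22 (SE, edgeR adjusted p = 0.822), and it was -0.28 ± 0.11 (adjusted p = 0.832) without control 2. Kcnj12, from the same strongly rectifying group, also had groups that did not overlap, at 8.24, 11.2 and 8.76 CPM in the controls and 7.15, 7.004 and 8.19 CPM in overexpression, -0.33 ± 0.22 (SE), or -0.19 without control 2. Its control 1 (8.236 CPM) was barely above overexpression library 3 (8.193 CPM). Kcnj2, of the same group, was at 27.6, 12.8 and 21.5 CPM in the controls and 22.2, 16.2 and 15.08 CPM in overexpression, -0.21 with control 2 and -0.46 without.

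The G protein-gated rectifiers, which slow firing when inhibitory transmitters bind their receptors, had changes of both signs. Kcnj6 was at 176, 81.7 and 178 CPM in the controls and 202, 217 and 198 CPM in overexpression, above every control. Its change was 0.499 ± 0.286 (SE), or 0.21 (edgeR adjusted p = 0.832) without control 2. Kcnj3, its common partner, was at 196 and 192 CPM in controls 1 and 3, at 146 CPM in control 2 and at 168, 167 and 145 CPM in overexpression, -0.15 ± 0.18 (SE) with control 2 and -0.28 without. Kcnj9 averaged 171 ± 13.3 CPM (control) and 151 ± 7.53 CPM (overexpression, SD, n = 3), and the groups overlapped. Kcnj5 was at 1.29, 1.12 and 1.33 CPM in the controls and 3.16, 0.932 and 2.80 CPM in overexpression. Overexpression library 2 was thus below all controls while the other two were above them.

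The sequences next to the start are shown for 3 of the 9 genes whose groups did not overlap with all libraries. These are Kcnj4 and Kcnmb3 on the lower and Kcnj6 on the higher side. Each is from RefSeq (GRCm38.p6) and runs from 250 bases before to 50 bases after a transcription start, 5′ to 3′ on the strand of the gene. Capitals mark the first transcribed base and any GC box (GGGCGG on either strand). Kcnj4 is at chr15:79505192-79505491, Kcnmb3 at chr3:32491920-32492219 and Kcnj6 at chr16:94997647-94997946, all on the minus strand, and Kcnj6 has 2 starts in the table, of which the outermost is shown.
Kcnj4: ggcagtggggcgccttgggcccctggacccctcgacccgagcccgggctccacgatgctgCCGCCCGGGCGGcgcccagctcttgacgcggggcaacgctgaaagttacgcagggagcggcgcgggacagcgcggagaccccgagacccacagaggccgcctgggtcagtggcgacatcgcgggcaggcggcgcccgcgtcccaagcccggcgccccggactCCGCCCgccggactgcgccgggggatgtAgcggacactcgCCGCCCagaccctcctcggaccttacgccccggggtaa
Kcnmb3: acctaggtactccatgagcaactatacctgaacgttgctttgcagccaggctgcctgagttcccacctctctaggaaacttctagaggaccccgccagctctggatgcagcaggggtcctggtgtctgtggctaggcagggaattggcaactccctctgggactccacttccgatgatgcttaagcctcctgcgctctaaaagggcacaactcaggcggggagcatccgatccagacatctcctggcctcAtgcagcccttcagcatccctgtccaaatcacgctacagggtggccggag
Kcnj6: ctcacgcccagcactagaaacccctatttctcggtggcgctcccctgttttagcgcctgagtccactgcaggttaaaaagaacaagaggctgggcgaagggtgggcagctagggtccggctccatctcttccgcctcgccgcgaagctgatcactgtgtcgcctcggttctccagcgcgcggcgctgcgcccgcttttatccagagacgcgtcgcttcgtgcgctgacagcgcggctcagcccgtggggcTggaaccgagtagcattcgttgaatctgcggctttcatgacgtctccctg

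The Kcnj4 sequence held 4 GC boxes, 41 CpG dinucleotides and 76% G and C, the Kcnj6 sequence 30 CpG and 62%, and the Kcnmb3 sequence 8 CpG and 57.7%, the last 2 without a GC box. None of the 3 held a TCF/LEF core (searched on both strands as CTTTGAA or else CTTTGAT, or with the ending changed as CTTTGTA or else CTTTGTT), the motif bound by the transcription factors of canonical Wnt signalling. Of the 93 channel genes, 68 had such a sequence, and 8 of these 68 (11.8%) held a TCF/LEF core in at least 1 start region, against 18.9% of 27025 genes in the table. A GC box was present in 43 of 68 (63.2%) against 38.2%, a TATA box (TATAAA, both strands) in 5 (7.4%) against 15.7%, and the full cyclic AMP response element (TGACGTCA) in 0 against 2.0%. Median G and C content was 60.0% over the channel genes and 52.7% over all. The table is not limited to protein-coding genes, and a match is a description of the letters in this window.

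The other inward rectifiers belong in part to other cells. Kcnj10, the astrocyte potassium clearance channel, was at 222.5, 149.8 and 238 CPM in the controls and 154, 214 and 222 CPM in overexpression. Its log2 fold change was -0.05 ± 0.23 (SE), or -0.23 without control 2, where the groups did not overlap (background 10.8% on the lower side). Its control 1 (222.5 CPM) was barely above overexpression library 3 (221.7 CPM). Astrocyte markers summed to 920 to 1387 CPM in the controls and 1109 to 1390 CPM in overexpression, with the lowest sum in control 2, where Kcnj10 was also lowest, and their part in its level was not tested. Kcnj8, the pericyte subunit of ATP-sensitive channels, was at 2.86, 6.13 and 3.17 CPM in the controls and 2.66, 5.72 and 4.31 CPM in overexpression. Mural cell markers summed to 123 to 162.5 CPM in the controls and 161 to 192 CPM in overexpression. Rgs5 made up most of the mural sum. Of the 4 mural markers, 3 were higher and 1, Acta2, was lower (log2 fold change -0.33), with 0 at p under 0.05. Kcnj13, known from choroid plexus, varied most of the 76 genes at 1 CPM or more when control 2 was left out, at 1.06, 0.862 and 1.33 CPM in the controls and 2.82, 1.25 and 0.322 CPM in overexpression. The 4 choroid plexus markers summed to 0.704 to 1.899 CPM in the controls and to 2.80, 1.91 and 1.49 CPM in overexpression, with Folr1, Clic6 and Aqp1 each at 0 in at least 1 library, and their part in its level was not tested.

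Tandem-pore-domain (K2P) channels carry the background potassium current. None of 10 tested genes had p under 0.05, 4 were above 0 and 6 below (median -0.17), and without control 2 it was 3 and 7 (median -0.12). On the deposited TPM the median was 0.05, with all genes at 0.179. Kcnk1 was at 74.7, 94.35 and 69.8 CPM in the controls and 50.2, 62.3 and 75.9 CPM in overexpression, with groups that overlapped. The log2 fold change of Kcnk1 was -0.34 ± 0.21 (SE), or -0.20 without control 2. Kcnk9, an acid-sensitive background channel of neurons, was at 351, 146 and 283 CPM in the controls and 382, 350 and 337.5 CPM in overexpression, 0.46 ± 0.295 (SE) with control 2 and 0.17 without. Kcnk5, a pH-sensitive member, was at 0.305, 0.11 and 0.336 CPM in the controls and 0.624, 0.418 and 0.630 CPM in overexpression. Its groups did not overlap, but at this low level the log2 fold change of 1.156 ± 0.56 (SE) had an edgeR adjusted p of 0.822, and it was 0.79 without control 2.

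**Figure D5:**
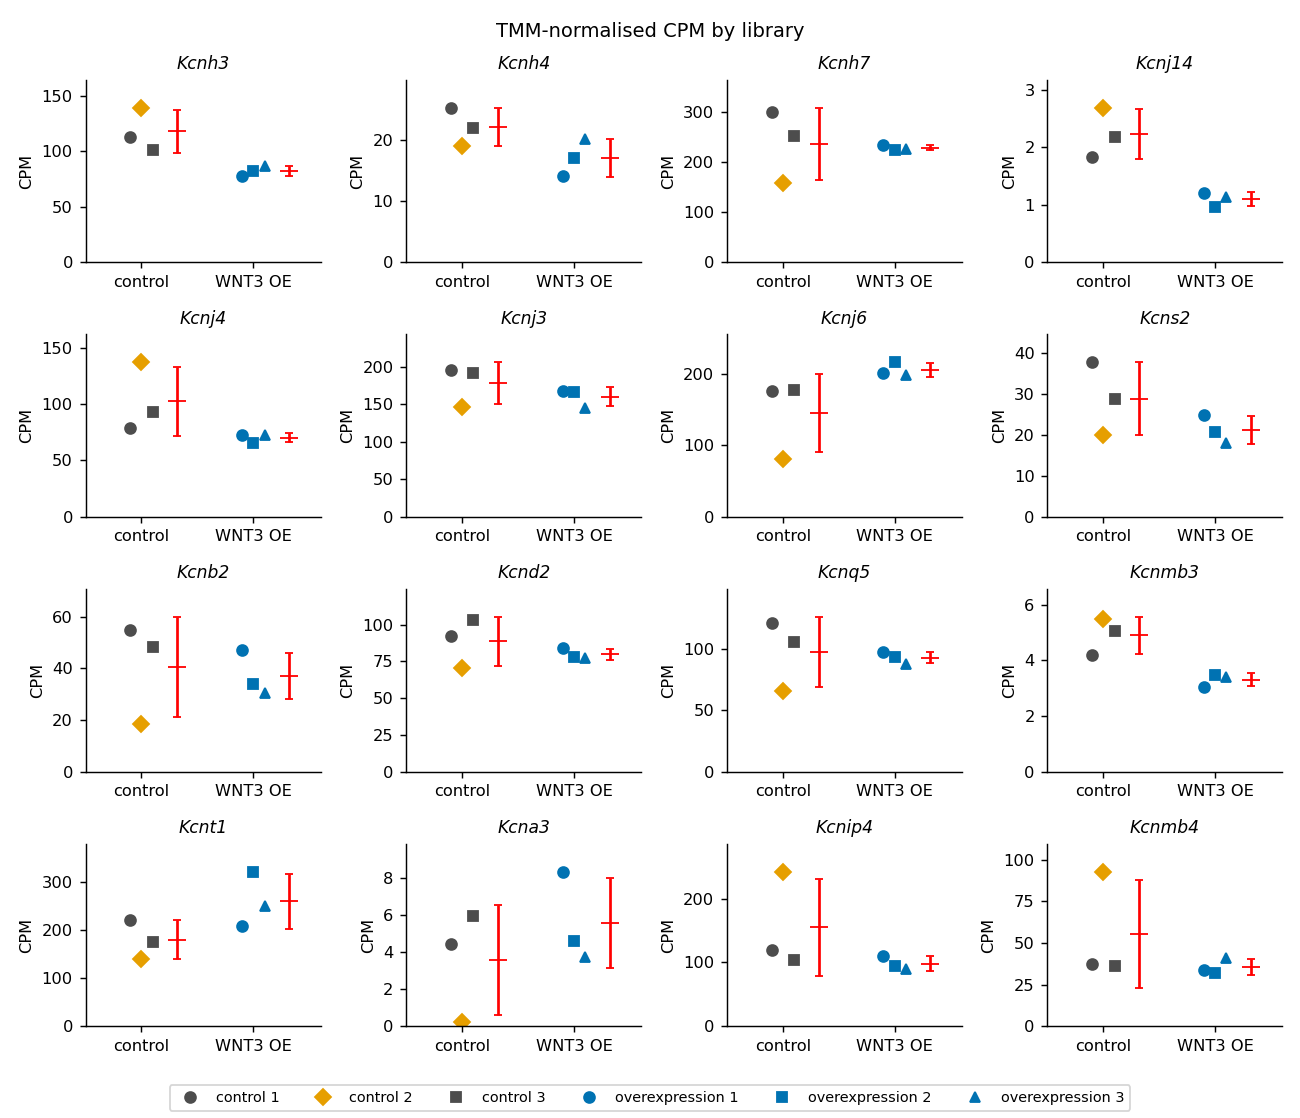
TMM-normalised CPM (linear axis from 0) of 16 channel genes in each library, with the group mean ± SD in red (n = 3). Kcnh3, Kcnj14, Kcnj4 and Kcnmb3 have every overexpression point below the lowest control, Kcnj6 has every one above the highest, and in Kcnh7, Kcnb2, Kcnd2 and Kcnq5 only control 2 (orange) lies below the overexpression libraries.

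Genes whose products bind, anchor or complete potassium channels were compared as well, 21 in all. Of 20 tested, 10 were above 0 and 10 below, none had p under 0.05, and the median was 0.002. Without control 2, 16 of 20 were below 0, the median was -0.15, and 7 had groups that did not overlap on the lower side (background 10.8%) and 1 on the higher side (background 11.1%). In that fit 53.2% of all genes were above 0. Jph3, which couples calcium stores to small-conductance channels, was at 191, 159 and 175 CPM in the controls and 130.5, 146 and 156 CPM in overexpression, below every control. Its log2 fold change was -0.28 ± 0.16 (SE), or -0.34 (edgeR adjusted p = 0.732) without control 2, where its unadjusted p was under 0.05. Abcc9, the regulatory subunit that pairs with Kcnj8 in pericytes, was at 12.9, 4.53 and 14.02 CPM in the controls and 14.1, 22.9 and 14.2 CPM in overexpression, 0.71 ± 0.42 (SE) with control 2 and 0.35 without. The scaffold genes Dlg2 and Cntnap2, which cluster Kv1 channels on axons, were lowest in control 2, at 235 CPM against 416 to 583 CPM and at 17.8 CPM against 56.05 to 78.2 CPM.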

How the data were processed

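RNA was measured in 3 control and 3 overexpression libraries. The deposited table gives a raw read count and a TPM per gene and library. Build mm10 is named in the submitters' processing notes, as are the tools STAR 2.5.3a, DESeq 1.16.1, Cuffnorm and FastQC 0.11.5, with no roles stated. The step that made the deposited TPM is not given in the sources used here.

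Counts were tested with edgeR 4.0.16 (R 4.3.3): TMM factors, filterByExpr by group with a minimum count of 10, the quasi-likelihood test on group alone, and Benjamini-Hochberg adjustment over 22360 genes (22962 without control 2). The threshold was an adjusted p of 0.05, and an unadjusted p under 0.05 served as a description. No exact permutation test of 3 against 3 can go below 0.1. DESeq2 1.42.0 and limma 3.58.1 (voom, and trend on log2 TPM) were alternatives. Relative transcript length was log2 of counts over TPM, and a lowess trend on it (span 0.3) was removed in 1 alternative. Scripts were tested on simulated data.

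The members and gene lists were chosen with earlier results of these data known. Named genes were those with unadjusted p under 0.05, the 2 smallest p and the highest TPM in each subfamily, the untested gene with most counts, Wnt3 and 2 partner genes. Other genes given with values were chosen after their values were seen. The results of 1 gene are not reported here. Gene positions come from GENCODE M21 and start sequences from RefSeq (GRCm38.p6). All 93 symbols matched in both, and 68 had a start sequence. Exons of 28 members overlap another gene, 26 of them on the opposite strand.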

Additional observations from a re-analysis of the deposited data

How the results depend on the processing

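No channel gene passed an adjusted p of 0.05 in any alternative run, or of 0.1 in edgeR with all libraries. The 5 genes with unadjusted p under 0.05 became 1 on log2(TPM + 1), 1 on log2(TPM + 0.1), 2 on log2(TPM + 1) without a filter, 2 with the replicate number as a block and 11 with the length trend removed. They ranged from 2 to 11 when each library was left out in turn: 8 without control 1, 11 without control 2, and 2 without overexpression library 1, 2 or 3. The count was 9 with the length trend removed and control 2 left out, and 13 by DESeq2 without control 2, both chosen after seeing the data. The median log2 fold change of -0.052 became 0.139, 0.148 and 0.128 in the TPM fits in the order above, where the medians of all genes were 0.179, 0.228 and 0.059. When single libraries were left out, the median of channel genes ranged from -0.096 to -0.005. Without overexpression library 1 it was -0.005, against -0.017 for all genes, and 50% of channel genes were above 0, against 48.3%. In every other such fit it lay below the median of all genes. The causes were not tested. Fold changes near 0 changed sign. Kcnab2 (0.00111) was at -0.000316 with RLE factors, -0.0115 with upper-quartile factors, -0.0104 with a mean of 1 CPM or more, -0.000983 by voom, -0.000973 with the block, -0.0527 with the length trend removed and -0.0154 with control 2 also left out, and between -0.0582 and 0.0638 when single libraries were left out (-0.0302 without control 1). Kcnj9 was at 0.0516, 0.0522 and 0.0516 in the TPM fits, Kcnc1 at 0.0898, 0.091 and 0.0898, and Kcnf1 at 0.138, 0.142 and 0.138. With single libraries left out, Kcnc1 ranged up from -0.181 and reached 0.0444, 0.0278 and 0.056 (without control 1, overexpression 1 and 2), and Kcnf1 ranged up from -0.158 and reached 0.0423 and 0.0965 (without control 3 and overexpression 2). Same-numbered libraries had correlations of 0.059, -0.02 and -0.01 in their deviations from group means. The deviations of all controls carry the offset of control 2 through the group mean. These values therefore cannot decide whether the numbers pair the libraries. The edgeR fit called no gene without the replicate block and no channel gene with it. What depth adds to the error was not tested.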
